A study of Mus musculus with 12 samples.

Results

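The genes described here encode the proteins of homologous recombination and of the Fanconi anemia pathway, which repair broken and cross-linked DNA. The set holds 34 genes, which were chosen by name with earlier results of these data known. Some encode the factors that recognize and trim DNA ends, the factors of strand exchange, and the helicases and nucleases that resolve joint molecules. The others encode the damage-response kinases, and the Fanconi core complex with its substrates FANCD2 and FANCI. The genes were followed in the left lung lobe of male C57BL/6J mice without any genetic change. The mice were kept for 3 days either in normoxia (21% oxygen, 6 mice) or in hypoxia (10% oxygen, 6 mice). The age of these mice is not given in the sources used here, and RNA of each mouse was measured on its own array. Chronic hypoxia is a standard rodent model of pulmonary hypertension, and the comparison asks which lung transcripts differ after the first days of exposure. A whole lobe is a mixture of cells, so fewer cells of a type and less RNA per cell cannot be told apart in these values. A deposited value is a level on a log2 scale, on which a difference of 1 is a 2-fold change, and each gene is read from a transcript cluster, a group of probes along 1 transcribed region. Of the 34 genes, 31 had a cluster of their own among the 22180 genes named on the array. Rad54b shares its cluster with Fsbp and Fanca shares its cluster with Zfp276, so neither was given a value, and Xrcc2 was not analysed here.

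Homologous recombination copies lost sequence from the sister chromatid and is therefore used in S and G2 phase, when a sister is present. Ends are trimmed to single strands, which pair with the matching duplex in a step that needs BRCA1, PALB2 and BRCA2. The Fanconi pathway acts on cross-links that block the replication fork: its core complex adds ubiquitin to FANCD2 and FANCI, and the lesion is then cut out and repaired by recombination. Many of these genes are induced by E2F transcription factors when cells enter the cycle.

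Promoter sequences were read for the members, since the genes with the lowest p-values are known cell cycle genes and the sites that cell cycle factors read are short. RefSeq promoters (GRCm38.p6, from 250 bases before to 50 bases after the start) were found for 26 of the 31 genes, 28 windows in all, and not for Exo1, Rad50, Nbn, Wrn and Fancd2. The 3 printed belong to the members that rose, Brip1 and Rad51ap1, and to Brca1, whose protein binds the BRIP1 helicase. Each run covers 150 bases before the start and 30 from it on, 5′ to 3′ on the strand of the gene, and capitals mark an E2F-like site or a CCAAT box on either strand. Brip1 lies at chr11:86201164-86201343 (minus strand), Rad51ap1 at chr6:126939558-126939737 (minus strand) and Brca1 at chr11:101551926-101552105 (minus strand).
Brip1: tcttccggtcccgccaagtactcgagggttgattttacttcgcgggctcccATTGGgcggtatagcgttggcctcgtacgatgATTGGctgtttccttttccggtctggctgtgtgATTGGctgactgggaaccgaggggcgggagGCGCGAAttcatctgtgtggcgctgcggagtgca
Rad51ap1: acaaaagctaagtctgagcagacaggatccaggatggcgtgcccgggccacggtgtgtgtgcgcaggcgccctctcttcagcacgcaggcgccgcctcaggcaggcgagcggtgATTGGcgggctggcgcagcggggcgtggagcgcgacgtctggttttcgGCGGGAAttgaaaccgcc
Brca1: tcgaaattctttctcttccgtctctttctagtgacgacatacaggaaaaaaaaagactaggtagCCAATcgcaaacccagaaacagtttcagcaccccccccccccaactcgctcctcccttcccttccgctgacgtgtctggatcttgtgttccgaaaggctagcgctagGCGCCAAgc

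The E2F-like sites were searched as 4 spellings on both strands. Brip1 carries 3 CCAAT boxes in a row and, at its start site, the reverse complement of the spelling TTCGCGC. In Rad51ap1 the reverse complement of the spelling TTCCCGC lies just downstream of the start. In Brca1 it is the reverse complement of the spelling TTGGCGC, which can overlap a CCAAT box. The remaining spelling was TTGCCGC. At least 1 E2F-like match was present in 17 of the 28 member windows (60.7%), against 9.57% of all 32851 promoter windows of this length. Both Brip1 and Rad51ap1 hold one, as do all 7 windows of members that were higher at an unadjusted p under 0.05, and 10 of the other 21 windows (47.6%) hold one as well. The windows were split by the p-values of these same data, so these shares are a description and not a test. Exo1 was also higher at that p but has no window. CCAAT was found in 57.1% of the member windows and in 37.4% of all windows. The cell cycle homology region (CHR, TTTGAA or TTCGAA), an element of genes that peak in G2 and mitosis, was found in 10.7% of the member windows and in 19.2% of all windows. The windows were not matched for base composition, and promoters of the other gene lists were not counted. A match of letters is a description of the sequence and not evidence of binding.

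After 3 days of hypoxia 2 of the 31 genes rose, Brip1 by 1.63-fold and Rad51ap1 by 1.43-fold, and none fell (limma, adjusted p under 0.05 over 41155 clusters). Across all named genes 3.90% rose and 2.14% fell, so 2 of 31 (6.45%) was not far from the background. At an unadjusted p under 0.05, 8 members were higher (25.8%), against 10.3% of all genes, and 2 were lower, against 9.24% of all genes. The median log2 difference of the members was 0.06, with a range from -0.26 to 0.70, and that of all named genes was -0.01. The differences were therefore small and uneven: a pair of genes moved, a few leaned upward without passing the test, and most lay close to 0.

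**Figure D1:**
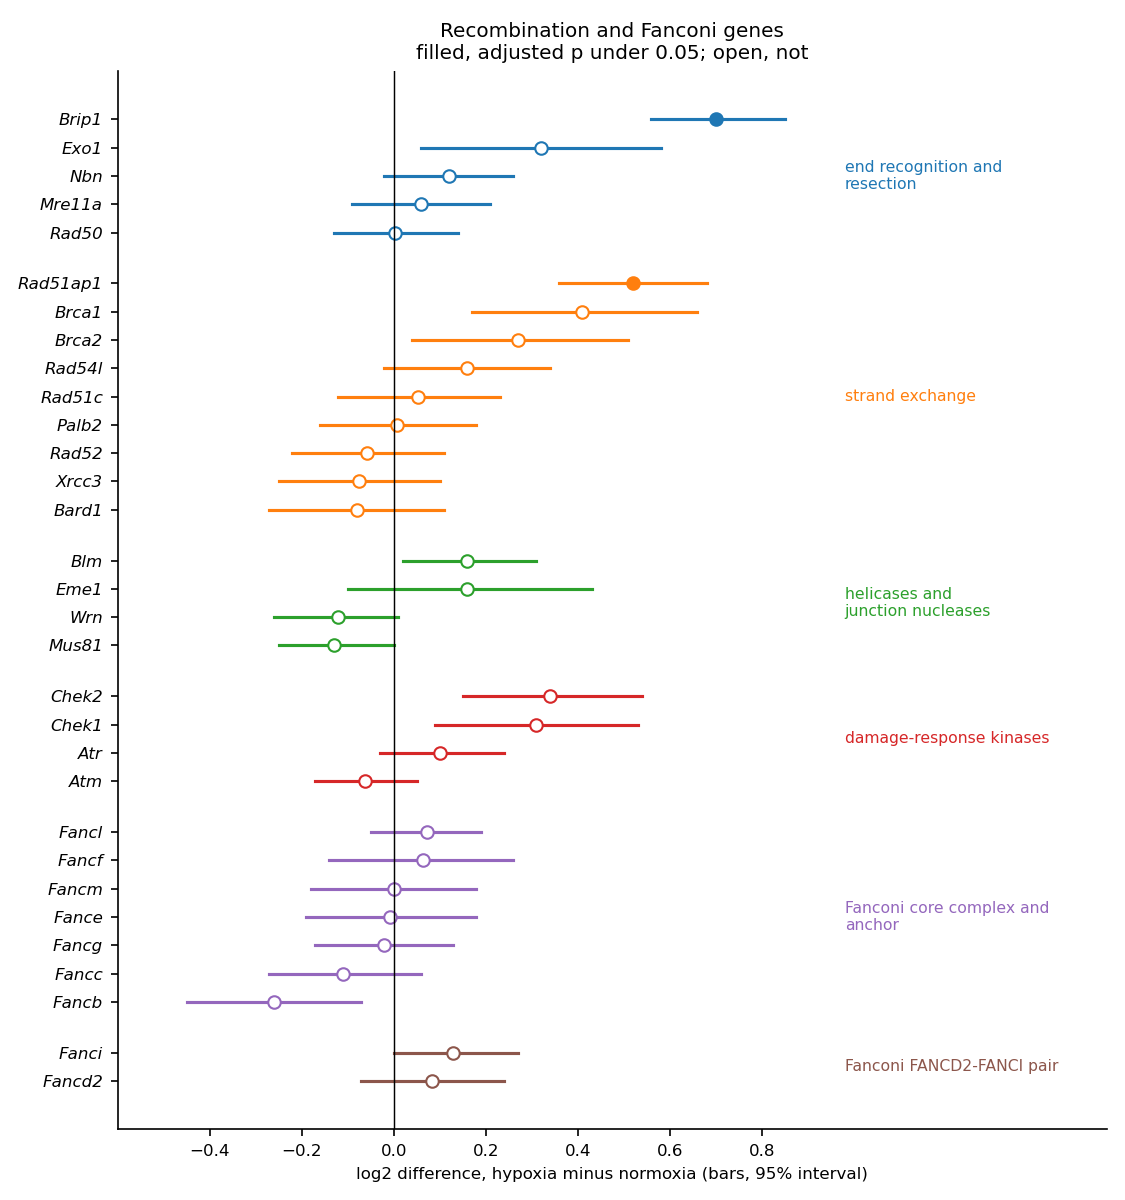
Log2 difference between hypoxia and normoxia for the 31 genes with a cluster of their own, ordered by role, with bars for the 95% interval (6 mice per group) and filled points for limma adjusted p under 0.05. Brip1 (0.70) and Rad51ap1 (0.52) are the filled points, and the Fanconi core genes gather around 0.

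Brip1 encodes the helicase FANCJ, which binds BRCA1 and unwinds DNA at breaks and cross-links. Its log2 level in normoxia was 4.70 in the lowest mouse, 4.79 at the median and 4.88 in the highest, and in hypoxia it was 5.35, 5.45 and 5.68. Every hypoxic mouse therefore stood above every normoxic mouse, with a gap between the groups wider than the range within either of them. The group means were 4.79 ± 0.078 and 5.49 ± 0.132 (SD, n = 6 each), and the log2 difference was 0.70 (SE 0.068, 95% interval 0.56 to 0.85, limma adjusted p = 6.52e-05).

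Rad51ap1 encodes a DNA-binding protein that promotes the pairing of the broken strand with its duplex. In normoxia its log2 level was 4.94, 5.04 and 5.24 in the lowest, median and highest mouse, and in hypoxia it was 5.48, 5.57 and 5.79. The groups did not overlap, which was also the case for 3.55% of all named genes in the upward direction. The means were 5.07 ± 0.12 and 5.59 ± 0.12 (SD, n = 6 each), and the log2 difference was 0.52 (SE 0.073, 95% interval 0.36 to 0.68, limma adjusted p = 0.00109).

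Brip1 was grouped here with the genes for recognition and trimming of DNA ends, and none of the others in that group passed the test. MRE11, RAD50 and NBN form the complex that holds the broken ends together and starts the trimming, and EXO1 is the nuclease that extends it. Rad50 differed by 0.00 on the log2 scale (95% interval -0.13 to 0.14), Mre11a by 0.06 (-0.09 to 0.21) and Nbn by 0.12 (-0.02 to 0.26), with limma adjusted p of 0.994, 0.748 and 0.411. Exo1 was at 5.12, 5.34 and 5.51 in normoxia and at 5.35, 5.64 and 5.97 in hypoxia, and 3 of the 6 hypoxic mice lay above all normoxic mice. Its log2 difference of 0.32 (SE 0.12) did not pass the test (limma adjusted p = 0.191). Of the 5 genes in this group, which includes Brip1, 1 rose, and their median log2 difference was 0.12.

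Among the genes that prepare or carry out strand exchange, 9 of 11 were measured, 1 rose (Rad51ap1) and the median log2 difference was 0.05. BRCA1 directs ends to recombination together with its partner BARD1, and PALB2 joins BRCA1 to BRCA2, which acts on the single strand. Brca1 was at 4.22, 4.39 and 4.75 in normoxia and at 4.63, 4.95 and 5.03 in hypoxia. The groups overlapped, 4 of the 6 hypoxic mice lay above all normoxic mice, and the log2 difference was 0.41 (SE 0.113, 95% interval 0.17 to 0.66), just outside the threshold (limma adjusted p = 0.0625). Brca1 was among the dimmest members, and its level was not set against the signal of background probes. It passed when normoxia replicate 2 (log2 difference 0.46, adjusted p = 0.0453) or normoxia replicate 3 (0.47, adjusted p = 0.0356) was left out, and over all 12 omissions of 1 array its adjusted p ran from 0.0356 to 0.132. Brca2 was at 5.11, 5.46 and 5.79 in normoxia and at 5.49, 5.79 and 5.90 in hypoxia, so its groups overlapped (log2 difference 0.27, SE 0.111, limma adjusted p = 0.223). The partners of these genes stayed close to 0, with a log2 difference of -0.08 for Bard1 (95% interval -0.27 to 0.11) and 0.01 for Palb2 (-0.16 to 0.18).

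RAD51C and XRCC3 form a complex that assists strand exchange, the product of Rad54l remodels the duplex that is invaded, and RAD52 anneals single strands. None of the 4 measured genes of this kind passed the test. Rad54l was 0.16 higher (95% interval -0.02 to 0.34) and Rad51c 0.05 higher (-0.12 to 0.23). Rad52 and Xrcc3 were 0.06 and 0.08 lower, with intervals of -0.22 to 0.11 and -0.25 to 0.10. All 4 intervals hold 0.

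The helicases BLM and WRN take apart recombination intermediates, and MUS81 with EME1 cuts those that remain joined. Blm was at 5.46, 5.61 and 5.74 in normoxia and at 5.60, 5.79 and 5.91 in hypoxia, with 4 of 6 hypoxic mice above all normoxic mice and a log2 difference of 0.16 (SE 0.068, limma adjusted p = 0.244). Mus81 leaned the other way, at 6.26, 6.37 and 6.51 in normoxia and 6.10, 6.26 and 6.33 in hypoxia (log2 difference -0.13, SE 0.058, limma adjusted p = 0.301). Wrn was 0.12 lower (95% interval -0.26 to 0.01) and Eme1 0.16 higher (-0.10 to 0.43), so this group of 4 had a median log2 difference of 0.02.

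ATM and ATR are the kinases that sense broken ends and stalled forks, and CHEK2 and CHEK1 are the kinases that they activate. The levels of the second pair leaned upward. Chek2 was at 5.48, 5.71 and 5.98 in normoxia and at 5.93, 6.03 and 6.32 in hypoxia. Normoxia replicate 4 (5.98) was the only normoxic mouse within the hypoxic range, 4 of 6 hypoxic mice lay above all normoxic mice, and the log2 difference was 0.34 (SE 0.091, 95% interval 0.15 to 0.54, limma adjusted p = 0.0507). Without normoxia replicate 4 the log2 difference of Chek2 was 0.40 and passed (limma adjusted p = 0.0238), and over all omissions of 1 array its adjusted p ran from 0.0238 to 0.102. Chek1 was at 5.07, 5.33 and 5.50 in normoxia and at 5.38, 5.54 and 5.94 in hypoxia (log2 difference 0.31, SE 0.103, limma adjusted p = 0.128). The upstream kinases showed less: Atr was 0.10 higher (95% interval -0.03 to 0.24), and Atm was at 7.17, 7.23 and 7.39 in normoxia and 7.15, 7.20 and 7.22 in hypoxia, with a log2 difference of -0.06 (-0.17 to 0.05).

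None of the Fanconi core and substrate genes passed the test. Of the core complex and its anchor, 7 of 8 genes were measured, with a median log2 difference of -0.01 and a highest value of 0.07 for Fancl, the ubiquitin ligase of the complex. Fancg (-0.02), Fance (-0.01), Fancm (-0.00) and Fancf (0.06) all had intervals within 0.3 of 0 on the log2 scale, and so did Fancc (-0.11, 95% interval -0.27 to 0.06). Fancb, an X-linked subunit that the ligase needs, had the lowest value of all members. It was at 5.23, 5.27 and 5.39 in normoxia and at 4.72, 5.04 and 5.37 in hypoxia, where 5 of 6 mice lay below all normoxic mice and the spread was wider than in normoxia. The log2 difference of -0.26 (SE 0.088, 95% interval -0.45 to -0.07) did not pass (limma adjusted p = 0.139), although it did without hypoxia replicate 5 (-0.32, adjusted p = 0.0269). The substrates of the complex, Fanci and Fancd2, were 0.13 higher (-0.00 to 0.27) and 0.08 higher (-0.07 to 0.24), and neither passed.

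**Figure D2:**
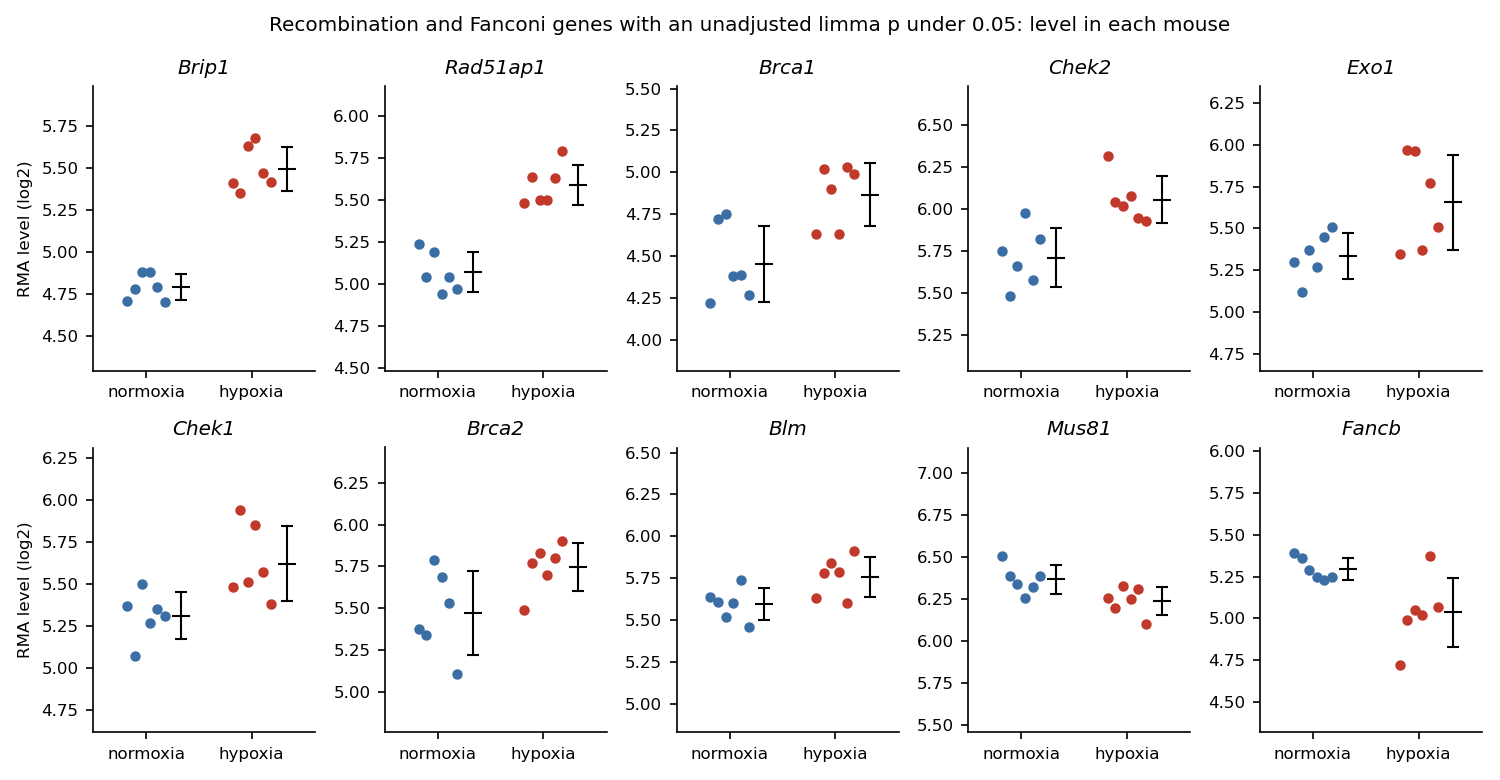
Log2 level in each of the 12 mice for the 10 members with an unadjusted p under 0.05, with 1 point per mouse and bars for the mean and SD of 6 mice. Each panel spans the same log2 range, so that the separation of Brip1 and Rad51ap1 can be set against the overlap of the other genes.

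For genes that did not pass, the intervals say how large a difference in array level these data could hold. The counts here cover all members, with Brip1 and Rad51ap1 among the intervals above 0. The 95% interval of 21 members held 0, that of 8 lay above it and that of 2 below it. For 20 of the 31 genes the whole interval lay within 0.3 of 0 on the log2 scale, a 1.23-fold difference, and for 24 it lay within 0.5, a 1.41-fold difference. No mouse was low or high for all members. Hypoxia replicate 1 was the lowest hypoxic mouse for 12 of 31 genes and hypoxia replicate 6 for 8, while normoxia replicate 3 was the highest normoxic mouse for 11 and normoxia replicate 2 the lowest for 9.

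To set genes whose products work as partners side by side, the log2 difference between partners was computed within each mouse for 10 pairs. The pairs were chosen after the values of the genes had been seen, so the changes between the groups are given as a description. In all 10 pairs the gene named first had the higher log2 difference, so the positive sign of every change follows from the order. The intervals are adjusted neither for the choice of pairs nor for their number. An interval that leaves out 0 therefore does not show that the partners differ. The log2 level of Chek2 minus that of Atm lay between -1.72 and -1.35 in normoxic mice and between -1.27 and -0.83 in hypoxic mice. These ranges did not overlap, and the change was 0.41 (SE 0.09, 95% interval 0.20 to 0.61), made up of 0.34 for Chek2 and -0.06 for Atm, neither of which passed the test across all clusters. Probes differ in brightness, so the distance between both levels has no meaning of its own.

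Brca1 minus Bard1 changed by 0.49 (SE 0.16, 95% interval 0.13 to 0.85). Eme1 minus Mus81 changed by 0.29 (SE 0.12, 0.03 to 0.55), Brca2 minus Palb2 by 0.27 (SE 0.12, 0.00 to 0.53) and Brip1 minus Brca1 by 0.29 (SE 0.14, -0.01 to 0.60). Within the MRE11 complex the intervals held 0, with Mre11a minus Rad50 at 0.06 (95% interval -0.13 to 0.24) and Nbn minus Rad50 at 0.12 (-0.04 to 0.27). The interval of Fanci minus Fancd2 (0.05, -0.14 to 0.24) held 0 too. Chek1 minus Atr (0.21, -0.08 to 0.50) and Rad51c minus Xrcc3 (0.13, -0.06 to 0.31) had intervals that held 0 as well.

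**Figure D3:**
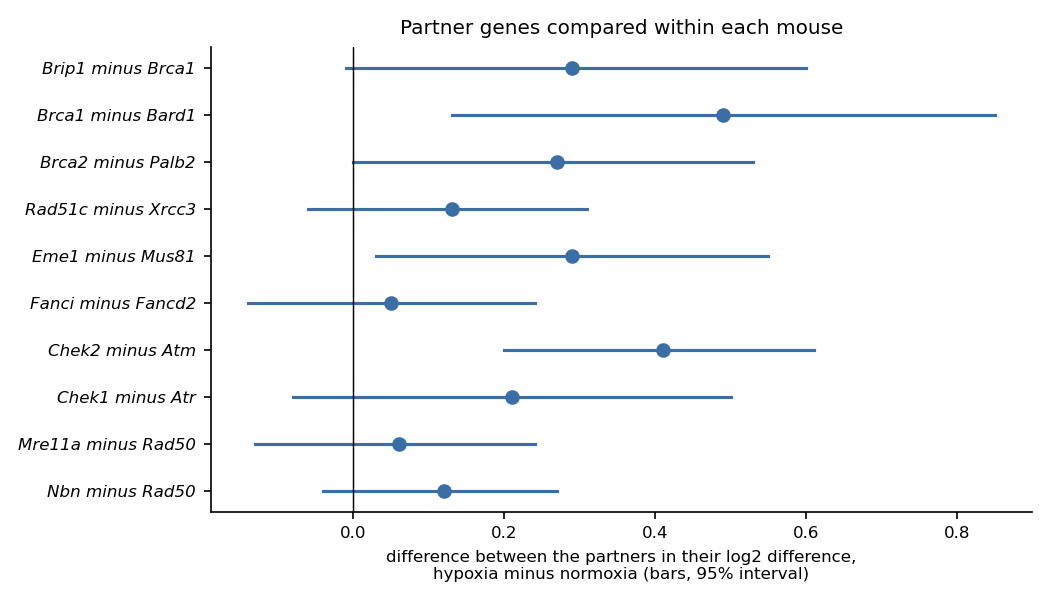
Change in the log2 difference between partner genes from normoxia to hypoxia for 10 pairs, with bars for the 95% interval (6 mice per group). The value for Chek2 against Atm is 0.41, and the intervals of the pairs within the MRE11 complex and of Fanci against Fancd2 hold 0. The gene with the higher log2 difference comes first in each pair, so all values are positive.

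The wider pathway was read from 42 further recombination and Fanconi genes, of which 39 were measured. Of these, 6 rose (15.4%, against 3.90% of all named genes), none fell, and their median log2 difference was 0.04, close to that of the members. Topbp1, the activator of ATR at stalled forks, rose by 0.32 (SE 0.055, limma adjusted p = 0.00426) and Clspn, which carries the ATR signal to CHEK1, by 0.30 (SE 0.057, adjusted p = 0.00888). Fignl1, an ATPase of the recombination pathway, rose by 0.43 (SE 0.075, limma adjusted p = 0.00504), and Usp1, which removes ubiquitin from FANCD2, by 0.25 (SE 0.055, adjusted p = 0.0216). The remaining 2, named after their values were seen, were Mcm8, a helicase subunit (0.28, limma adjusted p = 0.0317), and Rpa3, a subunit of the complex that covers single strands (0.27, adjusted p = 0.0442). Topbp1, Fignl1, Clspn, Usp1 and Mcm8 had groups that did not overlap, 5 of 39, against 3.55% of all named genes in the upward direction. All of them are among the 6 that rose. The calls of Usp1, Mcm8 and Rpa3 lay nearest the threshold. Usp1 passed in 10 of the 12 omissions of 1 array, but not without normoxia replicate 2 (limma adjusted p = 0.0501) or hypoxia replicate 2 (0.0504). Mcm8 passed in 3 (normoxia replicate 3, hypoxia replicate 1 and hypoxia replicate 5) and Rpa3 in 1 (normoxia replicate 3). Their log2 differences over the omissions ran from 0.25 to 0.31 and from 0.24 to 0.31. Every omission also lowered the number of named genes that passed, from 1338 to between 1006 and 1124. Gen1, a nuclease for joint molecules, also named after its value was seen, was 0.42 higher and did not pass (limma adjusted p = 0.0808), but did without hypoxia replicate 1 (0.51, adjusted p = 0.0204).

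Lists of other repair pathways held no gene that rose. Across all named genes 3.90% rose, so lists of this size would hold few or none at that share. In end joining, the route that rejoins breaks without a template, 10 genes were measured, and only Rif1, which shields ends from trimming, passed, with a fall by 0.19 (SE 0.047, limma adjusted p = 0.0399) that was kept in 1 of 12 omissions of 1 array, that of hypoxia replicate 3. None of 5 mismatch repair, 16 base excision repair and 14 nucleotide excision repair genes passed with limma. At an unadjusted p under 0.05 these lists had 0, 1 and 2 genes higher (0.0%, 6.25% and 14.3%), against 10.3% of all named genes. In the same order these lists had 0, 1 and 1 genes lower, against 9.24% of all named genes. Their median log2 differences were -0.04, -0.01 and -0.01, as against 0.06 for the members. Of 17 targets of p53, the factor that ATM and CHEK2 activate after damage, none rose and 2 fell (11.8%, against 2.14% of all named genes). These were Btg2 (-0.62, limma adjusted p = 0.00291) and Trp53inp1 (-0.37, adjusted p = 0.0119). At an unadjusted limma p under 0.05, 2 targets were higher and 4 lower, against 10.3% and 9.24% of all named genes. The log2 difference of 13 of the 17 lay below 0, with a median of -0.07. Cdkn1a, the p53 target that halts the cycle, was 0.49 higher and did not pass (limma adjusted p = 0.100).

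Proliferation genes moved in the same mice by larger amounts. Of 18 measured, 16 rose and none fell, with a median log2 difference of 0.52, and among them were Top2a (1.45), Cdk1 (1.25), Mki67 (1.17) and Mcm6 (0.54). Their mean level lay between 6.32 and 6.50 in normoxic and between 6.96 and 7.23 in hypoxic mice. The mean level of the members lay between 6.05 and 6.16 in normoxic and between 6.14 and 6.25 in hypoxic mice, so these ranges overlapped. For 25 of the 31 members the upper end of the 95% interval lay below 0.52, the median of the proliferation list. Brip1 (interval from 0.56) was the only member with an interval wholly above that value. How far the number of cycling cells enters the values of Brip1 and Rad51ap1 was not tested.

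**Figure D4:**
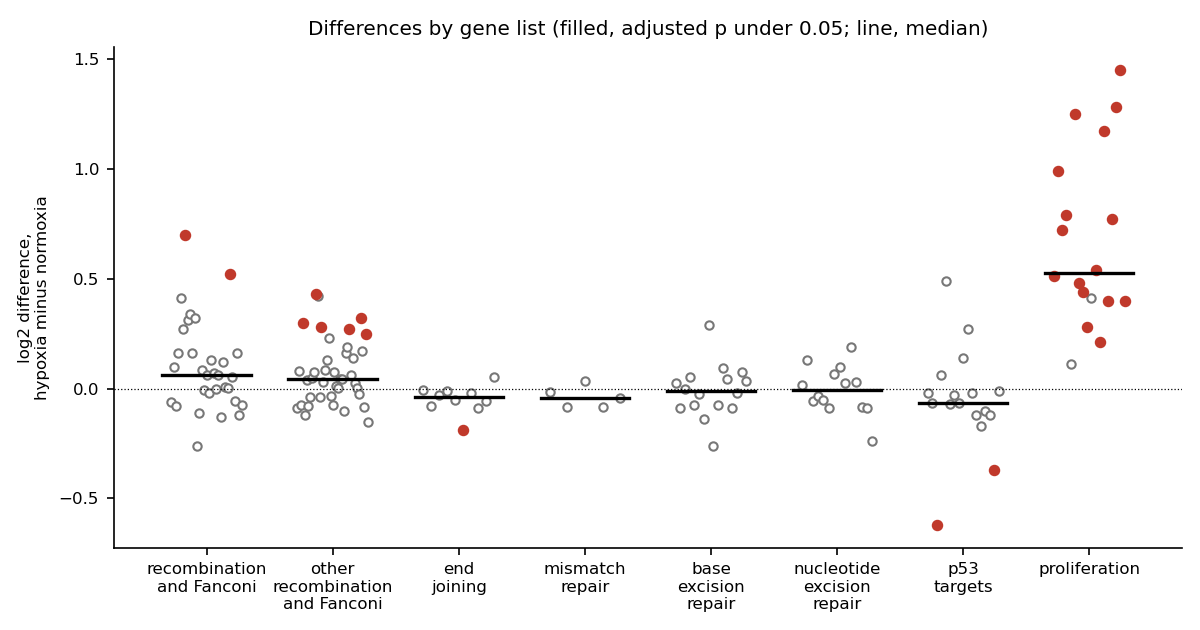
Log2 difference between hypoxia and normoxia for the genes of each list, with 1 point per gene, filled for limma adjusted p under 0.05, and a line at the median of the list. The recombination and Fanconi genes have a median of 0.06 and the proliferation genes one of 0.52, while mismatch, base excision and nucleotide excision repair hold no filled point.

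Markers of other cell types of the lobe were read from the same arrays. Of 6 fibroblast and mural cell markers 4 rose, Acta2 by 1.24 and Col1a1 by 0.87 among them, and their mean level lay between 9.18 and 9.46 in normoxic and between 9.94 and 10.09 in hypoxic mice. Of 7 T and NK cell markers 1 fell, Cd3g by 0.61, a call kept in 6 of 12 omissions of 1 array, and their mean level went from 6.47 to 6.97 in normoxic mice to 6.08 to 6.46 in hypoxic mice. Of 8 markers of lung epithelium, which identify the tissue, none passed, and the lowest p belonged to Foxj1, a factor of ciliated cells (0.29, limma adjusted p = 0.0658), and Nkx2-1, a lung lineage factor (-0.18, adjusted p = 0.0816), whose groups did not overlap. Foxj1 passed in 2 and Nkx2-1 in 3 of the 7 other fits. Sftpc, the surfactant protein that defines type 2 cells, was named for that role and lay at 13.33 to 13.43 in normoxia and 13.32 to 13.39 in hypoxia. Of 5 endothelial markers Kdr (-0.39) and Tek (-0.27) fell, the latter in only 2 of 12 omissions of 1 array. Of the blood cell markers, 1 of 8 neutrophil genes rose (Ltf, by 2.20). The log2 difference of 5 of these 8 lay below 0, with a median of -0.02, and Camp was lowest (-0.68, limma adjusted p = 0.178). Of 3 erythroid genes 1 rose (Slc4a1, by 0.83, in 4 of 12 omissions). Tfrc was 0.22 higher and Klf1 0.16 lower, and neither passed. In addition, 1 of 7 macrophage genes fell (Siglecf, by 0.47) and none of 4 B cell genes passed. Across all named genes 3.90% rose and 2.14% fell. The parts of these cell types in the values of the recombination genes were not tested.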

How the data were processed

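Amplified cDNA from 12 left lung lobes was read on whole-transcript mouse arrays, 1 for each mouse. Scans were processed by the authors with the Expression Console of Affymetrix, using RMA, and the deposited log2 values are therefore corrected for background, normalized and summarized over probes. Their versions are not given in the sources read. RMA draws all arrays to a common distribution, so that a shift of all genes would not be seen, and array medians lay between 5.89 and 5.95. Depth has no counterpart on arrays, and precision is set by the 6 mice per group.

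Of 41345 rows, 190 control rows were left out. The remaining 41155 clusters were fitted in R 4.3.3 using limma 3.58.1 (eBayes on lmFit, group only, two-sided), with Benjamini-Hochberg adjustment over all of them and a threshold of 0.05. The study used an anova, for which no second factor is named. Names came from the platform annotation, updated through RefSeq genes (GRCm38.p6, names and promoters only): 23521 clusters carry 1 symbol, 1820 several and 15814 are unnamed here. A gene was read from its cluster with the highest mean over the 12 arrays among those with 1 symbol, without a filter on dim clusters. Intervals cover the spread between these mice.

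The members and lists were chosen with earlier results of these data known. Of each further list at most 4 genes with the smallest p were named, apart from exceptions given in the text. Alternatives were an intensity trend, an analysis of variance, array weights, quantile normalization, a minimum mean level of 5, the replicate number as a block, the mean over all clusters of a gene, an adjusted p of 0.01 and each array left out in turn. The fit was tested on simulated arrays.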

Additional observations from a re-analysis of the deposited data

Results flagged for a closer look

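Levels of the 31 members were searched for a mouse far from the other 5 of its group with Dixon's test at its 95% critical value, over 62 groups of 6. One such value was found, for Atm in hypoxia replicate 1, at 7.15 against 7.20 for the nearest hypoxic mouse and 7.22 for the highest, a gap of 0.714 of the range. Chance gives about 1 in 20 groups.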

How the results depend on the processing

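Brip1 and Rad51ap1 passed under each of the 7 other fits and each of the 12 omissions of 1 array, with log2 differences from 0.67 to 0.73 and from 0.48 to 0.55 over the omissions. The number of members that rose was 2 or 3 throughout. The number that fell was 0 in each of these fits and ran from 0 to 1 over the omissions, with 1 (Fancb) without hypoxia replicate 5. Chek2 was the additional call with an intensity trend, quantile normalization or a minimum level of 5 (lowest adjusted p = 0.0303), and Brca1 with array weights (adjusted p = 0.0487). Brca1, Bard1 and Eme1 lie under a mean level of 5, so the filter leaves them without a value. Of 586 alternative values for members, 546 kept their direction and side of the threshold, 8 newly passed and 32 changed sign, in 6 genes whose log2 difference was at most 0.06 in size. The number of other recombination and Fanconi genes that rose was 6, but 2 with the replicate block (Topbp1 and Fignl1), 3 at an adjusted p under 0.01, 5 with the mean over all clusters of a gene, 7 with the analysis of variance, and 3 to 6 over the omissions. It was 3 without normoxia replicate 2 and without hypoxia replicate 2. The cause of these changes was not tested. The labels do not say whether replicate numbers pair the mice. Deviations of mice with the same number correlated between -0.0103 and 0.0723, which does not settle how the mice were housed or handled. With the replicate block 693 genes passed, against 1338 without it, and the same number of members rose, 2. After quantile normalization the median log2 difference of all clusters was -0.00778. Signal of background probes was not used here, so the low levels of members such as Brca1, Brip1, Bard1 and Eme1 cannot be set against background.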
